A study of Mus musculus with 46 samples.

Results

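The 7 MHC class II pathway genes H2-Aa, H2-Ab1, H2-Eb1, H2-DMa, H2-DMb1, Cd74 and Ciita were followed through 4 RNA-seq experiments on mouse bone marrow-derived macrophages (BMDMs). They were chosen by gene symbol, all 7 were listed in each of the 4 expression tables, and the tables together listed 25624 symbols. The experiments asked how perturbing the SWI/SNF chromatin remodelling complexes altered the response of macrophages to lipid A or LPS, which activate the receptor TLR4. In experiment 1, ACBI1, BRM014 and BRDK98 treated cells were sampled at 4 hr of lipid A, beside wild-type (WT) control cells at 0, 1 and 4 hr. In experiment 2, Arid1a-/- cells were sampled at 1 and 4 hr of LPS, beside Arid1af/f cells at 0, 1 and 4 hr. In experiment 3, Pbrm1-/- cells were sampled at 4 hr of lipid A, beside Pbrm1f/f cells at 0 and 4 hr. In experiment 4, cells with the same 3 compounds were sampled at 20 and 60 min of lipid A, beside WT cells at 0, 20 and 60 min. ACBI1 causes degradation of the remodelling ATPases SMARCA2 and SMARCA4 and of the subunit PBRM1, BRM014 blocks the activity of both ATPases, and BRDK98 is given here by its code name. The labels give no dose, no length of compound treatment, no mouse strain or age and no Cre driver, and no perturbed cells at 0 hr or 0 min were analysed here. Each group had 2 libraries, except the 4 hr control of experiment 1, which had 1 because its column was deposited again under the same name with identical values. Nothing in the labels ties the replicates to separate cultures or mice, so p-values measure only the spread between these libraries, which may be technical.

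MHC class II molecules display peptides from endocytosed proteins to CD4+ T cells. Their alpha and beta chains assemble in the endoplasmic reticulum with the invariant chain, which keeps the groove closed until endosomal proteases degrade it, and H2-DM then exchanges its last fragment for a peptide. Transcription of this gene group depends on CIITA, a coactivator without a DNA-binding domain of its own, which docks on RFX, CREB and NF-Y bound to the conserved X and Y boxes of the promoters. In macrophages CIITA is best known as a target of interferon gamma. Among the 7 genes, H2-Aa and H2-Ab1 encode the chains of I-A, H2-Eb1 the beta chain of I-E, Cd74 the invariant chain, H2-DMa and H2-DMb1 the chains of H2-DM, and Ciita the coactivator.

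H2-DMa, H2-DMb1, H2-Ab1, H2-Aa and H2-Eb1 lie within one stretch of mouse chromosome 17 in build mm10, from chr17:34122832-34139101 for H2-DMa, on the plus strand, to chr17:34305867-34316674 for H2-Eb1, on the plus strand. H2-Aa is at chr17:34282744-34287823 on the minus strand in the tables of experiments 2 and 4. Ciita is at chr16:10489781-10527640 on the plus strand. Promoters of 4 of the 7 genes, H2-Aa, H2-Eb1, H2-DMb1 and H2-DMa, were matched in RefSeq (GRCm38.p6); H2-Ab1, Cd74 and Ciita are named only. The last 120 bases before the start of the H2-Aa, H2-Eb1 and H2-DMb1 genes are shown because, of these 4, they hold an X core followed by a Y core. The X and Y boxes are where the RFX, CREB and NF-Y factors bind. The regions are chr17:34287824-34287943 on the minus strand, chr17:34305747-34305866 on the plus strand and chr17:34153071-34153190 on the plus strand. Capitals mark the X core, CTNGNAAC, and the Y core, TGATTGG, in that order from 5′ to 3′.
H2-Aa: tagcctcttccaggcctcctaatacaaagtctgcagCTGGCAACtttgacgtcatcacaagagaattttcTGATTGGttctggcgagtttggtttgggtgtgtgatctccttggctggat
H2-Eb1: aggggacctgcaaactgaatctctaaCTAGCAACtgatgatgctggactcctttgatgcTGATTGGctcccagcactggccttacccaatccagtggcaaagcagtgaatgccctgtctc
H2-DMb1: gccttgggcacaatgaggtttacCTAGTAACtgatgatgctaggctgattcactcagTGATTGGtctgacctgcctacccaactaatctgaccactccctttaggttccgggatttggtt

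The X core began 84 bases before the start of H2-Aa, 94 before H2-Eb1 and 97 before H2-DMb1, and 26, 25 and 26 bases separated it from the Y core. The letters were chosen after these promoters had been read, and both strands were searched. The Y core holds ATTGG, the reverse complement of the CCAAT box. In 250 bases before the start, 10.9% of 32851 RefSeq promoters held the X core, 7.23% the Y core and 0.819% both. An X core followed by a Y core with a gap of 15 to 40 bases was found in 20 promoters of 17 genes, which is 0.0609% of promoters. H2-Ob, another class II region gene, also held the pair, with a gap of 23 bases. H2-DMa held neither core before either of its 2 listed starts, which says only that these letters are not in those windows.

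**Figure D1:**
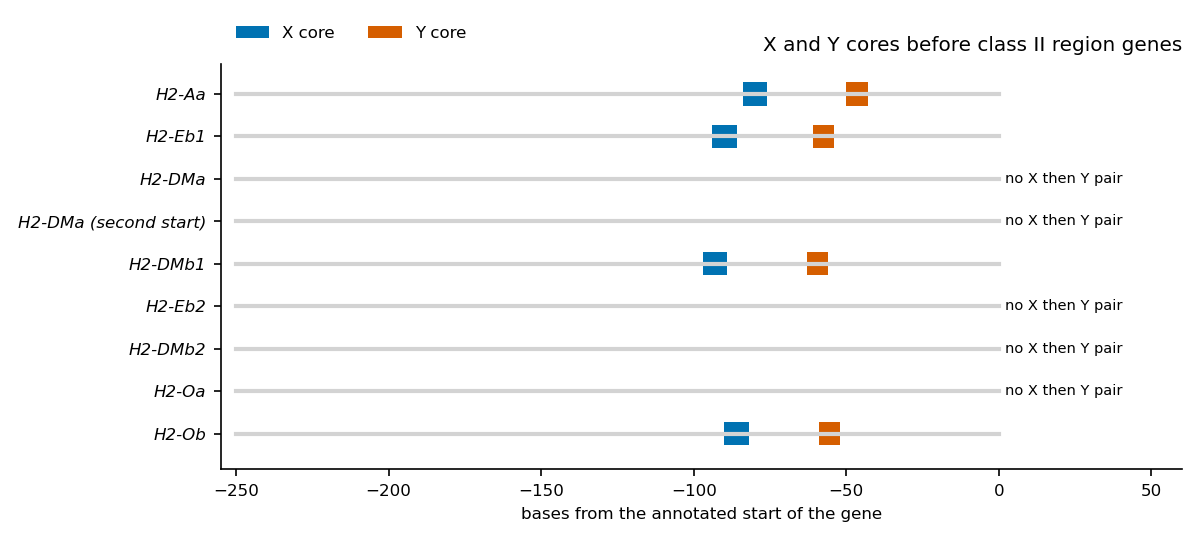
Position of the X core (blue) and the Y core (orange) in the 250 bases before the annotated start of class II region genes, in bases from the start, where both occur in that order with a gap of 15 to 40 bases. H2-Aa, H2-Eb1, H2-DMb1 and H2-Ob hold the ordered pair, and the grey lines of the other genes have none drawn.

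Levels are in TPM, the authors' values scaled by transcript length and library, so levels of different genes can be compared within a table. Recovered exonic reads numbered 7015041 to 27527076 per library, and 3 reads of Ciita correspond to 0.0254 to 0.116 TPM, a floor that covers counting error only. Of the macrophage markers, Lyz2, encoding lysozyme, was at 9425 TPM or more and Adgre1, encoding F4/80, at 396 TPM or more in every library. Of 8 B cell markers, 6, Pax5 and Blk among them, were at 0.607 TPM or less in every library, while Cd79b reached 9.40 TPM and Cd22 12.1 TPM. Of 7 listed T and NK cell markers, 5, the Cd3 genes among them, were at 0.226 TPM or less, while Lck reached 45.9 TPM. Of 8 granulocyte markers, Ly6g was at 0.339 TPM or less, while S100a8 and S100a9 reached 167 and 246 TPM, and the summed markers were at 6.54 to 52.8 TPM in experiments 1 and 2 and at 277 to 524 TPM in experiments 3 and 4. Of the dendritic cell markers, Flt3 was at most 0.24 TPM and Zbtb46 at most 0.494 TPM, while Clec10a, a lectin that macrophages also make, reached 213 TPM. The control library replicate 2 at 4 hr in experiment 3 stood apart from replicate 1, with Irf8 at 208 TPM against 764 TPM, Adgre1 at 943 TPM against 604 TPM and T and NK cell markers summing to 11.5 TPM against 41.7 TPM, and results of that experiment are given with and without it. In bulk RNA, fewer cells that express a gene and less RNA per cell cannot be told apart. Arid1a averaged 10.2 ± 4.25 TPM in Arid1a-/- cells and 17.8 ± 0.696 TPM in Arid1af/f cells at 1 hr, and 25.7 ± 0.473 and 38.5 ± 4.72 TPM at 4 hr (SD, n = 2 each). Pbrm1 averaged 4.79 ± 0.344 TPM in Pbrm1-/- cells and 15.2 ± 0.663 TPM in Pbrm1f/f cells (SD, n = 2 each). The labels do not give the deleted exons, so remaining reads may come from outside them.

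Cd74, which lies on chromosome 18, was the most abundant of the 7 genes by median level, at 135, 32.8, 373 and 205 TPM in experiments 1 to 4. In experiment 2 its neighbour in the order was H2-DMb1, at 24.6 TPM, and their ranges overlapped. Ciita was the least abundant in every experiment, with medians of 0.695, 0.606, 0.954 and 0.979 TPM in experiments 1 to 4. Between these extremes, median H2-Aa was 39.4, 8.21, 90.3 and 63.3 TPM, median H2-Ab1 40.6, 6.97, 78.2 and 56.8 TPM, and median H2-Eb1 15.8, 3.03, 31.9 and 27.2 TPM in experiments 1 to 4. The ranges of H2-Aa and H2-Ab1 overlapped in every experiment, so the order of these neighbours was not fixed. Median H2-DMa was 13.2, 11.3, 19.5 and 36.3 TPM and median H2-DMb1 19.4, 24.6, 21.8 and 41.0 TPM.

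Experiment 2 stood apart in the composition of the group. H2-Aa reached at most 9.64 TPM there, against at least 14.5 TPM in the libraries of experiments 1, 3 and 4, and H2-Eb1 at most 3.38 TPM, against at least 5.05 TPM. H2-DMb1 did not stand apart, at 16.4 to 29.9 TPM in experiment 2 and 13.6 to 47.2 TPM across the other experiments. H2-Ea-ps, the I-E alpha chain gene under its annotation as a pseudogene, was at 1.75 to 3.39 TPM in all 10 libraries of experiment 2 and was listed at 0 in all 35 other libraries. The control libraries without stimulus already differed. H2-Aa was at 8.24 and 5.85 TPM at 0 hr in experiment 2. It was at 72.7 and 65.0 TPM at 0 hr in experiment 1 and 117 and 112 TPM at 0 hr in experiment 3. In experiment 4 it was at 63.6 and 58.9 TPM at 0 min. H2-Ea-ps was at 2.001 and 1.946 TPM at 0 hr in experiment 2. The tables were normalised separately, and the mice and the table changed together. The part of each in these differences was not tested.

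The early response of control cells in experiment 4 raised the I-A and I-E chain genes and Cd74. In experiment 4, H2-Aa was at 63.6 and 58.9 TPM at 0 min, 64.1 and 59.5 TPM at 20 min and 89.7 and 80.3 TPM at 60 min. Cd74 was at 202 and 204 TPM at 0 min, 206 and 194 TPM at 20 min and 328 and 315 TPM at 60 min. The 0 and 20 min libraries overlapped for both genes, and both 60 min libraries were above them. H2-DMa was at 30.4 and 30.7 TPM at 60 min, below the 32.8 and 32.6 TPM at 0 min. H2-DMb1 was at 40.8 and 40.6 TPM at 60 min and 35.2 and 36.4 TPM at 0 min. At 60 min against 0 min, 4 of the 7 genes rose, against 7.47% of all 11549 genes tested that rose: H2-Aa by a log2 change of 0.46 (95% interval 0.25 to 0.68, limma adjusted p = 0.0014), H2-Ab1 by 0.42 (0.21 to 0.63), H2-Eb1 by 0.41 (0.19 to 0.63) and Cd74 by 0.66 (0.47 to 0.86). Here and below, a change is on the log2(TPM + 1) scale, and a gene rose or fell when limma's p, adjusted over all tested genes, was under 0.05 with the same sign on TPM as deposited and on TPM scaled by median ratios. Where the libraries of a group are said to lie above or below others, the share of all genes that did so was not counted. Beside the rise at 60 min, the dendritic cell markers summed to 187 and 173 TPM at 60 min and 218 and 181 TPM at 0 min, the B cell markers to 7.81 and 7.16 TPM and 11.3 and 11.5 TPM, and the granulocyte markers to 434 and 454 TPM and 334 and 326 TPM; their part was not tested. At 20 min no member passed, when 1.1% of genes did; 1, H2-DMb1, had an unadjusted limma p under 0.05, and voom on recovered reads called 0.

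Ciita did not follow the I-A and I-E chain genes and Cd74. It was at 1.62 and 1.55 TPM at 0 min, 1.37 and 1.40 TPM at 20 min and 0.715 and 0.934 TPM at 60 min in experiment 4, with both 60 min libraries below all the others. The change at 60 min was -0.50 (-0.79 to -0.22, adjusted p = 0.0048) on deposited TPM and -0.29 (-0.57 to -0.02, adjusted p = 0.0909) after median scaling, so it was not called. At 1 hr in experiment 1, Ciita was at 0.981 and 1.02 TPM, against 2.74 and 2.0 TPM at 0 hr, a change of -0.74 (-1.12 to -0.36) with an adjusted p of 0.00371, and of 0.0529 after scaling. H2-Ab1 (0.23, 0.04 to 0.41) and Cd74 (0.37, 0.10 to 0.64) rose at 1 hr in experiment 1, 2 of 7 genes against 9.9% of 11531 genes that rose. Neither call held when 1 hr replicate 1 was left out, with changes of 0.16 for H2-Ab1 and 0.27 for Cd74, or when 1 of the 0 hr libraries was left out, with 0.21 for H2-Ab1 without replicate 1 and 0.28 for Cd74 without replicate 2. At 1 hr of LPS in experiment 2 none of the 7 genes passed, against 34.2% of 11798 genes that passed in either direction. H2-DMa alone had an unadjusted limma p under 0.05 on both scalings, at -0.37 and -0.23, and voom called 0.

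By 4 hr the direction differed between experiments. In experiment 1, H2-Aa was at 72.7 and 65.0 TPM at 0 hr, 73.2 and 57.3 TPM at 1 hr and 23.3 TPM in the only 4 hr library. H2-DMb1 was at 42.5 and 41.6, 38.8 and 39.2, and 15.3 TPM at 0, 1 and 4 hr, and Ciita fell to 0.209 TPM, or 6 reads, at 4 hr, against 71 and 128 reads at 0 hr. At 4 hr against 0 hr, 5 of the 7 genes fell, against 38.1% of all genes: H2-Aa by 1.52, H2-Eb1 by 1.43, H2-DMa by 1.35, H2-DMb1 by 1.40 and Ciita by 1.47 on the log2 scale. The median change of all genes was -0.84 on deposited TPM and -0.08 after scaling, where these 5 changes were -0.58, -0.52, -0.45, -0.48 and -1.09. H2-Ab1 and Cd74 were lower on deposited TPM, by -0.29 and -0.64, and higher after scaling, by 0.65 and 0.31. The lone 4 hr library is assumed to vary like the other groups, and the call for H2-DMa was lost after scaling when either 0 hr library was left out, with deposited changes of -1.30 and -1.40.

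Beside this fall, the summed TPM of the 12 dendritic cell markers was 41.5 at 4 hr and 248 and 183 at 0 hr. Of the 5 tested, 2 rose and 3 fell, Clec10a being at 15.6 TPM at 4 hr and at 213 and 155 TPM at 0 hr. Flt3 was at 0.036 TPM or less in all libraries of experiment 1. The 10 macrophage markers summed to 19124 TPM at 4 hr and to 47115 and 43515 TPM at 0 hr. The B cell markers summed to 1.66 TPM at 4 hr and 13.317 and 13.045 TPM at 0 hr, and both tested members, Cd79b and Cd22, fell. The T and NK cell markers summed to 12.2 TPM at 4 hr and 3.43 and 2.72 TPM at 0 hr, and the granulocyte markers to 21.6 TPM and 22.5 and 32.8 TPM. The part of these markers in the class II changes was not tested.

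In experiment 2, class II genes rose at 4 hr of LPS. Cd74 was at 28.5 and 26.5 TPM at 0 hr, 31.0 and 32.5 TPM at 1 hr and 65.3 and 66.1 TPM at 4 hr. H2-Ab1 was at 6.57 and 6.39, 7.35 and 6.60, and 13.1 and 16.1 TPM at these times, and Ciita at 0.766 and 0.294, 0.445 and 0.446, and 2.02 and 1.86 TPM. For all 3 genes both 4 hr libraries were above all the earlier ones. At 4 hr against 0 hr, H2-Ab1 rose by 1.05 (0.74 to 1.37, limma adjusted p = 4.7e-05) and Cd74 by 1.23 (0.85 to 1.60), and Ciita was higher by 0.96 (0.60 to 1.33). With Ciita, 3 of 7 genes passed, against 17.9% of all genes that rose. Ciita reached 1 TPM in the 4 hr libraries only, so it passed the filter on low values through them alone. Its change is thus a description with no test. Beside these higher levels, the dendritic cell markers summed to 104 and 108 TPM at 4 hr and 51.1 and 56.4 TPM at 0 hr, with 3 of 5 tested higher, 1 lower and Flt3 listed at 0. The B cell markers summed to 1.77 and 1.49 TPM at 4 hr and 6.71 and 6.72 TPM at 0 hr, the T and NK cell markers to 13.4 and 14.8 TPM and 4.46 and 4.72 TPM, and the granulocyte markers to 26.5 and 16.7 TPM and 8.25 and 10.2 TPM, and the part of these markers was not tested. H2-Aa (0.40, -0.19 to 0.98) and H2-Eb1 (0.22, -0.08 to 0.51) passed only after scaling, where they were 1.01 and 0.73. H2-DMa was -0.30 on deposited TPM and 0.34 after scaling. H2-DMb1 was -0.64 on deposited TPM and 0.02 after scaling.

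In experiment 3, Cd74 was at 391 and 376 TPM at 4 hr and at 318 and 371 TPM at 0 hr. Ciita was at 0.739 and 1.17 TPM at 4 hr, against 2.0 and 1.60 TPM at 0 hr, and H2-DMb1 at 19.2 and 19.7 TPM, against 35.6 and 36.1 TPM. None of the 7 genes passed both limma fits, when 48% of 11044 genes did in either direction, while voom on reads called 4. On deposited TPM, H2-DMb1 was lower by -0.85, H2-DMa by -0.48, H2-Eb1 by -0.43 and Ciita by -0.52, each with p under the threshold. After scaling, H2-Aa was higher by 0.45, H2-Ab1 by 0.61 and Cd74 by 0.96, also under the threshold. The median of all genes was -0.75 on deposited TPM. Without the 4 hr library that stood apart, again none of the 7 passed, when 50.4% of genes did, with H2-Aa at -0.47, H2-DMa at -0.67 and Ciita at -0.68 on deposited TPM.

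**Figure D2:**
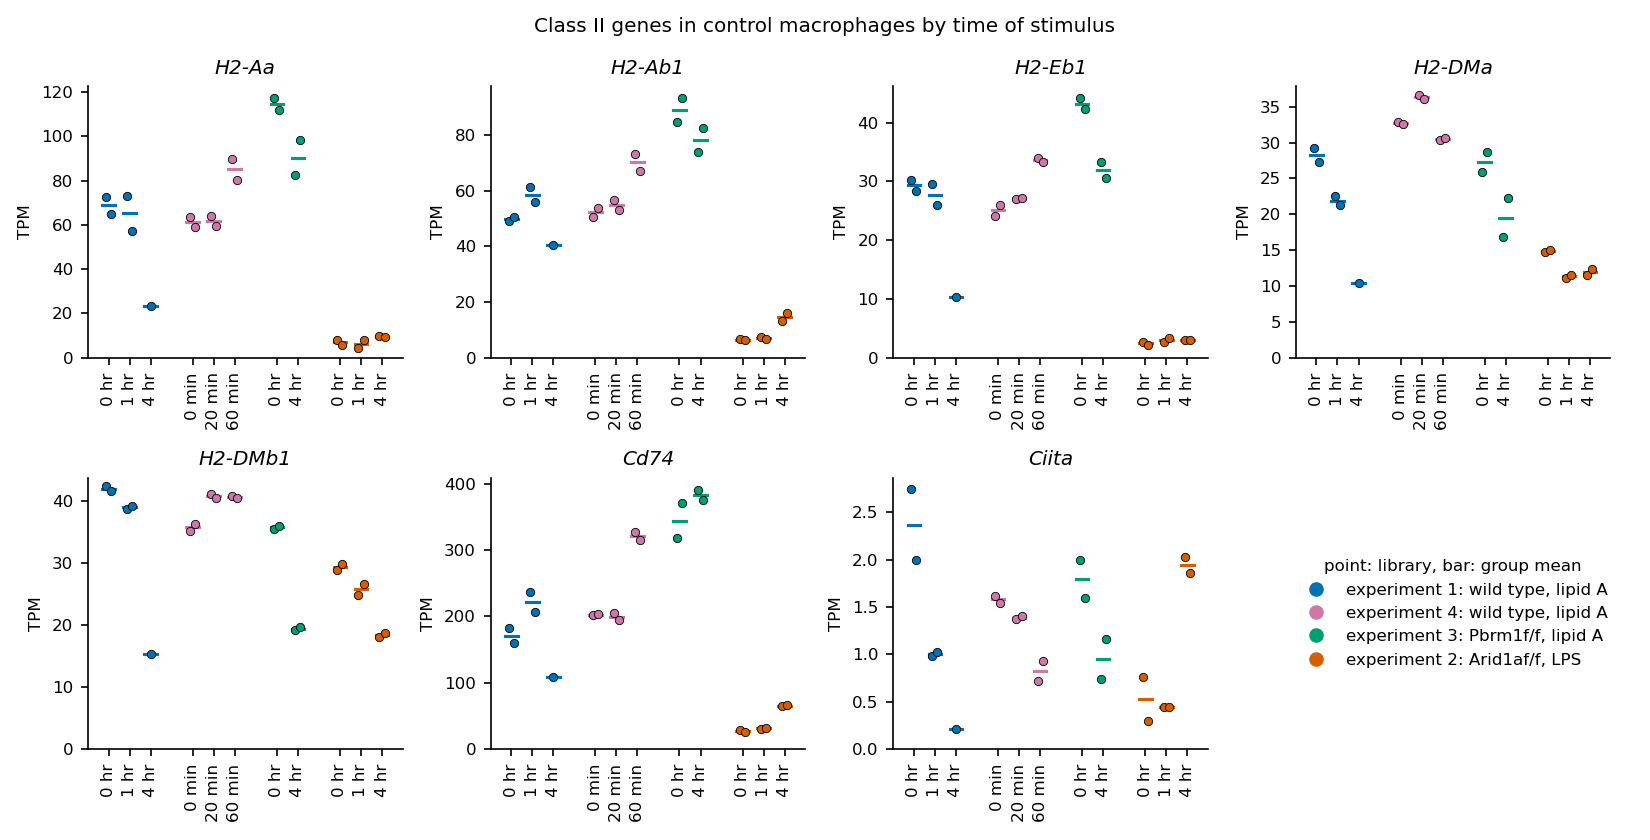
TPM of the 7 class II genes in control macrophages at each time of stimulus (horizontal axis), with 1 point per library and a bar at the group mean, coloured by experiment. In experiment 1 H2-Aa was at 23.3 TPM at 4 hr, below the 0 and 1 hr libraries, while in experiment 2 Cd74 was at 65.3 and 66.1 TPM at 4 hr, above the earlier libraries.

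At 4 hr of lipid A, the 3 compounds left different class II levels. H2-Aa was at 39.4 and 42.0 TPM with ACBI1, 34.3 and 37.7 TPM with BRM014, 14.5 and 18.7 TPM with BRDK98 and 23.3 TPM in the control. H2-Ab1 was at 39.4 and 42.2 TPM with ACBI1, 30.8 and 30.2 TPM with BRM014, 14.1 and 14.3 TPM with BRDK98 and 40.6 TPM in the control. H2-Eb1 was at 15.8 and 17.8 TPM with ACBI1, 15.2 and 11.5 TPM with BRM014, 5.51 and 5.05 TPM with BRDK98 and 10.3 TPM in the control. For all 3 genes the BRDK98 libraries were the lowest, and the ACBI1 libraries were above both other compounds.

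With ACBI1 at 4 hr, 2 of the 7 genes rose, H2-Aa by 0.78 (0.39 to 1.16, limma adjusted p = 0.0043) and Ciita by 0.62 (0.15 to 1.08, adjusted p = 0.0339), against 20% of all genes that rose. Ciita had 0.695 and 1.02 TPM with ACBI1, from 30 and 47 reads, against 0.209 TPM, from 6 reads, in the control. The H2-Aa call was lost when either ACBI1 library was left out (0.82 and 0.73), and the Ciita call when ACBI1 replicate 2 was left out (0.49). Neither gene was called by voom on recovered reads, with a pseudocount of 0.1 or with a replicate block. The other genes were between -0.08 for H2-DMb1 and 0.66 for H2-Eb1 on deposited TPM, beside a median of 0.25 for all genes. The macrophage markers summed to 26287 and 25248 TPM with ACBI1 and 19124 TPM in the control, the T and NK cell markers to 19.305 and 21.002 TPM and 12.2 TPM, and the dendritic cell markers to 44.3 and 47.7 TPM and 41.5 TPM, and their part was not tested.

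With BRM014 at 4 hr, only H2-Ab1 fell, by 0.40 on the log2 scale (interval -0.63 to -0.18), 1 of 7 genes against 16.4% of all genes that fell. The other structural genes were higher on deposited TPM, H2-Aa by 0.60, and near 0 or lower after scaling, where H2-Aa was at 0.05; the median of all genes was 0.43 on deposited TPM. The macrophage markers summed to 29390 and 28006 TPM with BRM014 and 19124 TPM in the control, the granulocyte markers to 52.8 and 43.3 TPM and 21.6 TPM, and the T and NK cell markers to 7.47 and 6.57 TPM and 12.2 TPM, and their part was not tested. With BRDK98 at 4 hr, 3 of 7 genes fell, against 12.4% of all genes: H2-Aa by 0.48 (interval -0.86 to -0.09), H2-Ab1 by 1.45 (-1.68 to -1.22, adjusted p = 2.93e-06) and H2-Eb1 by 0.84 (-1.21 to -0.48). After scaling these were -1.10, -2.08 and -1.43, and Cd74 (-0.91), H2-DMa (-0.66) and H2-DMb1 (-0.37) were also lower with p under the threshold. The H2-Aa call was lost without BRDK98 replicate 1, at -0.30. Beside these falls the dendritic cell markers summed to 27.7 and 26.2 TPM with BRDK98 and 41.5 TPM in the control, with 1 of 5 tested lower, and 4 of 10 macrophage markers fell at sums of 19340 and 19594 TPM with BRDK98 and 19124 TPM in the control. The granulocyte markers summed to 6.60 and 6.54 TPM with BRDK98 and 21.6 TPM in the control, with 3 of 5 tested lower. The part of these markers in the falls was not tested.

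Ciita was nearly absent with BRM014 and BRDK98. It had 0 and 1 reads with BRM014 and 0 and 0 reads with BRDK98, against 6 reads in the control library. On log2(TPM + 1) the changes were -0.25 (-0.72 to 0.21) and -0.27 (-0.74 to 0.19), which the added 1 TPM holds near 0 and which bound nothing. limma voom on the recovered reads, an alternative to the TPM fit, gave adjusted p = 0.0051 for BRM014 and 0.000848 for BRDK98. The authors' deposited table gives Ciita adjusted p-values of 0.0481 for BRM014 and 0.00402 for BRDK98, both lower than control, and 0.0396 for ACBI1, higher than control. At 6 control reads in 1 library, the size of the fall was not measurable.

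**Figure D3:**
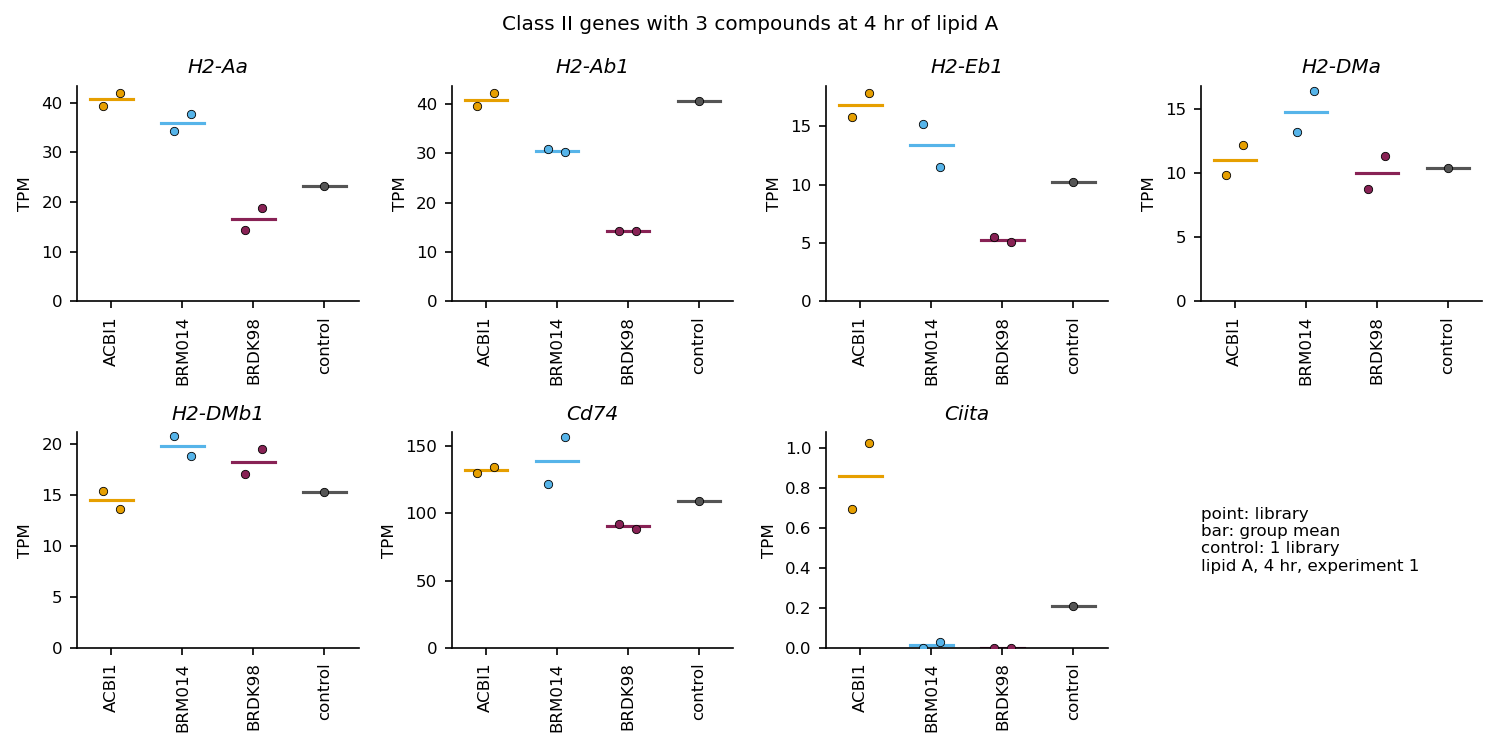
TPM of the 7 class II genes at 4 hr of lipid A in experiment 1 with ACBI1, BRM014 or BRDK98 and in the control (horizontal axis), with 1 point per library and a bar at the group mean; the control is 1 library. H2-Ab1 was at 14.1 and 14.3 TPM with BRDK98 and at 40.6 TPM in the control, and Ciita was at 0 in both BRDK98 libraries.

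The compounds were set against each other in 3 pairs at 4 hr. The labels give the same time but no doses. Calls used p-values adjusted over all tested genes within a pair, and adjustment over all genes and the 3 pairs together left every call of a member at 4 hr in place. BRDK98 against ACBI1 gave 5 of 7 genes lower, against 15.4% of all genes: H2-Aa by -1.26 (-1.57 to -0.94), H2-Ab1 by -1.46 (-1.64 to -1.27), H2-Eb1 by -1.50 (-1.80 to -1.21), Cd74 by -0.55 (-0.82 to -0.27) and Ciita by -0.89 (-1.27 to -0.51). H2-DMa (-0.13, -0.46 to 0.20) did not pass, and H2-DMb1 (0.31, 0.09 to 0.53) passed only on deposited TPM. BRDK98 against BRM014 also gave 5 lower genes, against 22.1% of all genes: H2-Aa by -1.08, H2-Ab1 by -1.05, H2-Eb1 by -1.18, H2-DMa by -0.52 and Cd74 by -0.61. The H2-DMa call was lost without BRM014 replicate 2 (-0.37) or BRDK98 replicate 1 (-0.35). BRM014 against ACBI1 gave 2 lower genes, against 14.1% of all genes, H2-Ab1 by -0.41 (-0.59 to -0.22) and Ciita by -0.87 (-1.25 to -0.49). Between these 2 compounds Cd74 differed by 0.06 (-0.21 to 0.33) and H2-Aa by -0.17 (-0.49 to 0.14), intervals that allow small differences.

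At 60 min, experiment 4 gave another order. ACBI1 raised H2-DMa, which was at 52.1 and 51.2 TPM with ACBI1, 38.7 and 29.8 TPM with BRM014, 27.9 and 29.4 TPM with BRDK98 and 30.4 and 30.7 TPM in the control. The change with ACBI1 was 0.74 (0.54 to 0.94, limma adjusted p = 4.35e-05), 1 of 7 genes against 11.6% of all genes that rose. It was present on both scalings, in all 4 fits that left out 1 library of the pair of groups, and in the authors' deposited table, where the log2 fold change is 0.94. Cd74 was not called, at 365 and 379 TPM with ACBI1 and 328 and 315 TPM in the control. The authors' deposited table gives Cd74 a log2 fold change of 0.39 with an adjusted p-value of 0.000195. Of the 7 genes, 2 had an unadjusted limma p under 0.05 on both scalings, and voom called 2. At 20 min H2-DMa was at 35.2 and 37.4 TPM with ACBI1 and 36.6 and 36.0 TPM in the control, and the effect at 60 min exceeded that at 20 min by 0.74 (0.46 to 1.03, adjusted p = 0.00122), 1 of 7 genes against 9.37% of all genes. The partner chain H2-DMb1 was at 38.5 and 41.2 TPM with ACBI1 and at 40.8 and 40.6 TPM in the control (-0.03, -0.20 to 0.14). H2-DMb2, a close copy of H2-DMb1 with which reads may be shared, was at 2.73 and 2.41 TPM with ACBI1 and at 0.934 and 1.01 TPM in the control, and it rose by 0.86. H2-Oa, encoding a chain of the H2-DM inhibitor H2-O, was at 1.05 and 1.30 TPM with ACBI1, from 20 and 25 reads, and at 0.665 and 0.374 TPM in the control, from 13 and 6 reads. These ACBI1 libraries were the only ones of experiment 4 in which H2-Oa reached 1 TPM, so it passed the filter on low values through them alone, and its values are a description with no test. The other 3 class II region genes listed were too low to test.

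H2-DMa shares 360 exonic bases in GENCODE M21 with Brd2, a bromodomain gene on the opposite strand, and reads were counted on both strands, so reads of the pair cannot be told apart there. Brd2 was at 118 and 113 TPM with ACBI1, 402 and 576 TPM with BRM014, 631 and 660 TPM with BRDK98 and 130 and 151 TPM in the control at 60 min. Among the 4 groups at 60 min, H2-DMa was highest where Brd2 was lowest. The part of shared reads in the H2-DMa levels was not tested. The dendritic cell markers summed to 117 and 116 TPM with ACBI1 and 187 and 173 TPM in the control, with 2 of 4 tested genes higher, 1 lower, and Flt3 at 0.24 TPM or less. The granulocyte markers summed to 277 and 292 TPM with ACBI1 and 434 and 454 TPM in the control, with 4 of 7 tested lower, and the macrophage markers to 29265 and 29775 TPM and 35801 and 35170 TPM, with 2 of 10 higher and 2 lower. The part of these markers in the H2-DMa result was not tested.

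**Figure D4:**
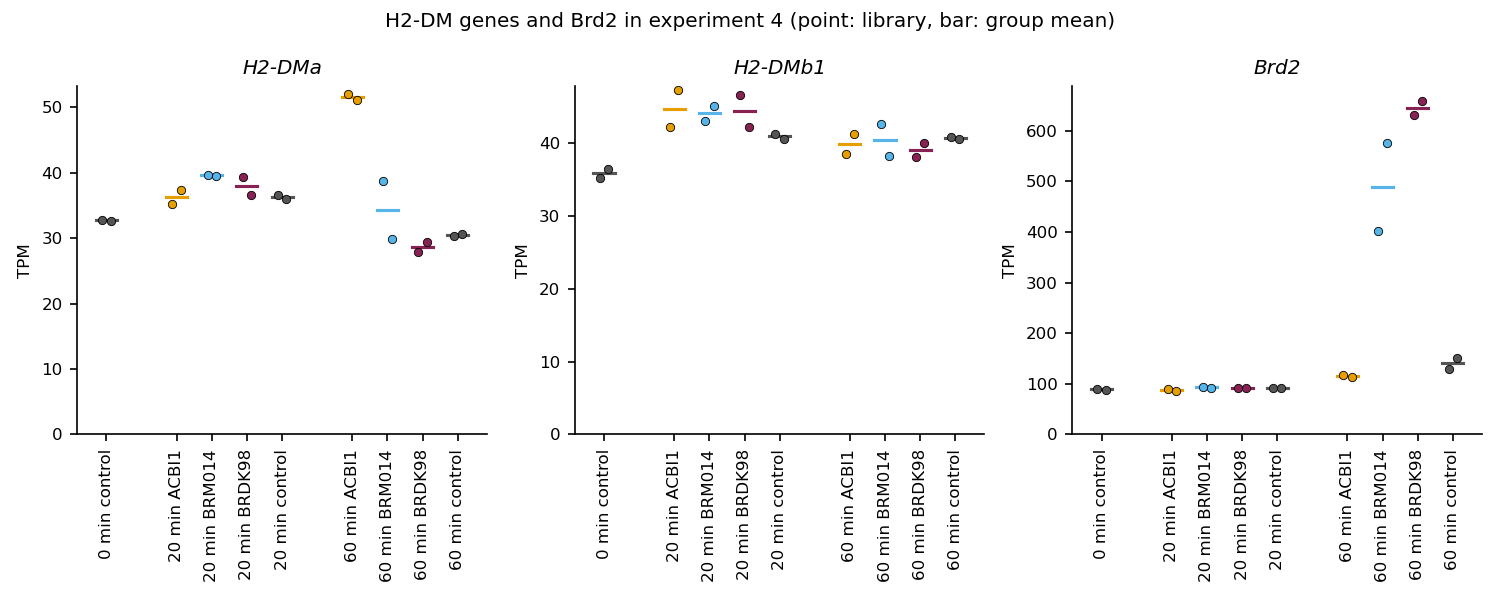
TPM of H2-DMa, its partner H2-DMb1 and the overlapping gene Brd2 in experiment 4, by time of lipid A and compound (horizontal axis), with 1 point per library and a bar at the group mean. H2-DMa was at 52.1 and 51.2 TPM with ACBI1 at 60 min, above all other groups, while H2-DMb1 changed little and Brd2 was at 402 TPM or more with BRM014 and BRDK98.

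With BRM014 at 60 min the I-A and I-E chain genes fell. H2-Aa was at 63.4 and 54.3 TPM with BRM014, against 89.7 and 80.3 TPM in the control, and H2-Ab1 at 52.6 and 56.7 TPM, against 73.3 and 67.2 TPM. H2-Eb1 was at 29.0 and 22.9 TPM, against 33.9 and 33.3 TPM. The BRM014 libraries stayed near the levels of the 0 min control, where H2-Aa was at 63.6 and 58.9 TPM. The changes were -0.53 (-0.74 to -0.31, adjusted p = 0.00128) for H2-Aa, -0.36 (-0.57 to -0.15) for H2-Ab1 and -0.37 (-0.59 to -0.15) for H2-Eb1, 3 of 7 genes against 13.5% of all genes that fell. Cd74 was at 344 and 294 TPM, against 328 and 315 TPM, a change of -0.02 (-0.21 to 0.18). The H2-Eb1 call was lost without either 60 min control library (-0.36 and -0.38) or BRM014 replicate 2 (-0.21), and the H2-Ab1 call without control replicate 1 (-0.30). In the authors' deposited table the H2-Aa log2 fold change is -0.58 with an adjusted p-value of 0.117. That of H2-Ab1 is -0.42 (adjusted p-value 0.297) and that of H2-Eb1 -0.42 (adjusted p-value 0.398), so none of these genes passes there. The 2 BRM014 libraries differed from each other in H2-DMa and in Brd2 (values above), and without replicate 2 H2-DMa passed as higher, at 0.33. The dendritic cell markers summed to 176 and 174 TPM with BRM014 and 187 and 173 TPM in the control, and none of the 4 tested passed. The granulocyte markers summed to 517 and 455 TPM with BRM014 and 434 and 454 TPM in the control, and the macrophage markers to 32971 and 33603 TPM and 35801 and 35170 TPM, with 1 of 10 lower.

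The effect of BRM014 on H2-Aa at 60 min exceeded that at 20 min by -0.49 (-0.80 to -0.18, adjusted p = 0.0324), 1 of 7 genes against 6.41% of all genes. This call was lost in 6 of 8 fits that left out 1 library, where the difference was -0.38 to -0.55. With BRDK98 at 60 min only Cd74 fell, to 238 and 260 TPM, against 328 and 315 TPM in the control (-0.37, -0.57 to -0.18, adjusted p = 0.0135), 1 of 7 genes against 5.55% of all genes. The Cd74 call was lost in 3 of 4 fits that left out 1 library, without control replicate 1 (-0.34), BRDK98 replicate 1 (-0.31) or BRDK98 replicate 2 (-0.43). Beside this fall of Cd74, the dendritic cell markers summed to 149 and 166 TPM with BRDK98 and 187 and 173 TPM in the control, and the macrophage markers to 37459 and 39917 TPM and 35801 and 35170 TPM, and their part was not tested. No member differed between the BRDK98 effects at 60 and 20 min, when 6.64% of genes did; 2, H2-Ab1 and Cd74, had an unadjusted limma p under 0.05, and voom called 0. At 20 min no member passed with any compound, when 0.147% of genes did with ACBI1, 0.39% with BRM014 and 1.34% with BRDK98; 0 had an unadjusted p under 0.05 and voom called 0 in each.

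In the 3 pairs of compounds at 60 min, H2-DMa and Cd74 separated ACBI1 from the others. BRDK98 against ACBI1 gave 2 lower genes, against 14.3% of all genes, H2-DMa by -0.83 (-1.03 to -0.63) and Cd74 by -0.58 (-0.77 to -0.38). BRM014 against ACBI1 gave 4 lower genes, against 19.6% of all genes, H2-Aa by -0.41 (-0.63 to -0.20), H2-Ab1 by -0.31 (-0.52 to -0.10), H2-DMa by -0.59 (-0.79 to -0.39) and Cd74 by -0.22 (-0.42 to -0.03). The H2-Ab1 call was lost without ACBI1 replicate 2 (-0.17) or BRM014 replicate 1 (-0.25), and the Cd74 call without either ACBI1 library (-0.25 and -0.20) or BRM014 replicate 2 (-0.11). Adjusted over all genes and the 3 pairs together, this Cd74 difference had a limma adjusted p = 0.0544 on deposited TPM and the other calls of members at 60 min stayed. BRDK98 against BRM014 gave 1 lower gene, against 12.4% of all genes, Cd74 by -0.35 (-0.55 to -0.16), and the call was lost without BRM014 replicate 1 (-0.24), BRDK98 replicate 1 (-0.29) or BRDK98 replicate 2 (-0.42). H2-Aa was higher with BRDK98 than with BRM014 by 0.39 (0.18 to 0.61), which passed after the joint adjustment (limma adjusted p = 0.00542, and 0.038 after scaling) but not within the pair, where p was 0.0507 after scaling. H2-DMb1 differed by -0.05 to 0.02 in the 3 pairs, with intervals between -0.22 and 0.19. BRDK98 thus lowered I-A and I-E chain transcripts at 4 hr in experiment 1, while at 60 min in experiment 4 these 3 genes did not pass with BRDK98; the difference between the experiments was not tested.

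Loss of Arid1a, a DNA-binding subunit of the canonical BAF form of SWI/SNF, lowered 2 of the 7 genes at both times. H2-Ab1 was at 3.87 and 2.88 TPM in Arid1a-/- cells, against 7.35 and 6.60 TPM in Arid1af/f cells, at 1 hr of LPS, and at 9.34 and 9.57 TPM, against 13.1 and 16.1 TPM, at 4 hr. H2-DMa was at 6.88 and 7.79 TPM, against 11.1 and 11.6 TPM, at 1 hr, and at 7.57 and 7.16 TPM, against 11.5 and 12.3 TPM, at 4 hr. The genotypes did not overlap for either gene at either time, though the share of all genes without overlap was not counted. At 1 hr H2-Ab1 fell by 0.87 (interval -1.19 to -0.56, adjusted p = 0.000832) and H2-DMa by 0.57 (-0.80 to -0.34), against 16.8% of all genes that fell. At 4 hr the falls were 0.57 (-0.88 to -0.26, adjusted p = 0.0126) and 0.63 (-0.86 to -0.40, adjusted p = 0.00147), against 10.8% of all genes. The H2-Ab1 call at 4 hr was lost without control replicate 2 (-0.43), Arid1a-/- replicate 1 (-0.56) or Arid1a-/- replicate 2 (-0.59). Cd74 was called at neither time. At 4 hr it was at 56.5 and 44.3 TPM in Arid1a-/- cells, against 65.3 and 66.1 TPM. The authors' deposited table gives it a log2 fold change of -0.46 with an adjusted p-value of 0.00936 at 4 hr. At each time 3 of the 7 genes had an unadjusted limma p under 0.05 on both scalings, and voom called 3.

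The I-A alpha chain gene H2-Aa did not pass at either time. Its difference from H2-Ab1 was not tested, and at 4 hr its interval includes the H2-Ab1 change. H2-Aa was at 8.64 and 5.98 TPM in Arid1a-/- cells and 4.60 and 8.19 TPM in Arid1af/f cells at 1 hr (0.19, -0.39 to 0.78), and at 9.04 and 6.92 TPM and 9.64 and 9.30 TPM at 4 hr (-0.23, -0.82 to 0.36). Ciita had 2 and 7 reads in Arid1a-/- cells, against 20 and 22 reads in Arid1af/f cells, at 1 hr, and 97 and 79 reads, against 79 and 80 reads, at 4 hr. Its change was -0.39 (-0.76 to -0.03, adjusted p = 0.0832) at 1 hr and 0.02 (-0.34 to 0.39) at 4 hr. voom on reads gave adjusted p = 0.00952 for Ciita at 1 hr and 0.0371 for the difference between the times, while the TPM fit gave 0.258 for that difference. By the TPM fit no member differed between the knockout effects at 4 and 1 hr, when 15.9% of genes did, and 0 had an unadjusted p under 0.05. Brd2, which overlaps H2-DMa, was at 74.2 and 82.4 TPM in Arid1a-/- cells, against 115 and 113 TPM, at 1 hr, and at 232 and 233 TPM, against 179 and 179 TPM, at 4 hr. At 1 hr, 7 of 10 macrophage markers fell and 1 rose, their sum being 15987 and 15893 TPM in Arid1a-/- cells and 21052 and 20814 TPM in Arid1af/f cells. Of the 5 tested dendritic cell markers 4 fell, with sums of 57.1 and 60.6 TPM in Arid1a-/- cells, against 89.1 and 85.1 TPM. The granulocyte markers summed to 39.9 and 33.7 TPM in Arid1a-/- cells, against 23.9 and 24.7 TPM, and the B cell markers to 3.64 and 4.16 TPM, against 4.74 and 5.97 TPM. At 4 hr the dendritic cell markers summed to 84.5 and 79.2 TPM in Arid1a-/- cells, against 104 and 108 TPM, and the granulocyte markers to 31.0 and 38.4 TPM, against 26.5 and 16.7 TPM. The part of these markers in the changes was not tested.

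Loss of Pbrm1, a subunit of the PBAF form, changed none of the 7 genes, and 0.00905% of all 11044 genes, a single gene, passed. H2-Eb1 was at 22.0 and 23.9 TPM in Pbrm1-/- cells and 33.2 and 30.7 TPM in Pbrm1f/f cells (-0.46, -0.80 to -0.12, adjusted p = 0.468). Ciita was at 0.466 and 0.243 TPM, against 0.739 and 1.17 TPM (-0.52, -0.93 to -0.12, adjusted p = 0.468). H2-Aa was at 71.4 and 66.3 TPM, against 82.5 and 98.1 TPM (-0.38, -0.73 to -0.04, adjusted p = 0.468). The genotypes did not overlap for these genes, but the share of all genes without overlap was not counted, so this adds nothing to the fits. On deposited TPM, 4 of the 7 genes had an unadjusted limma p under 0.05, all lower, against 1, Ciita, on both scalings, and voom called 0. Pbrm1 itself did not pass both fits, at -1.48 with an adjusted p of 0.0265 on deposited TPM and 0.113 after scaling. The comparison rests on the 4 hr control library that stood apart. Without that library, replicate 2, 12 genes passed and none of the 7 did, with H2-Aa at -0.26, H2-Eb1 at -0.52 and Ciita at -0.37. With it as the only control, without replicate 1, 1121 genes passed, again none of the 7, with H2-Aa at -0.51, H2-Eb1 at -0.40 and Ciita at -0.68. In these fits the lone control is assumed to vary like the other groups. The whole fit had 3 residual degrees of freedom, and a p that misses the threshold does not show that the genotypes were alike.

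**Figure D5:**
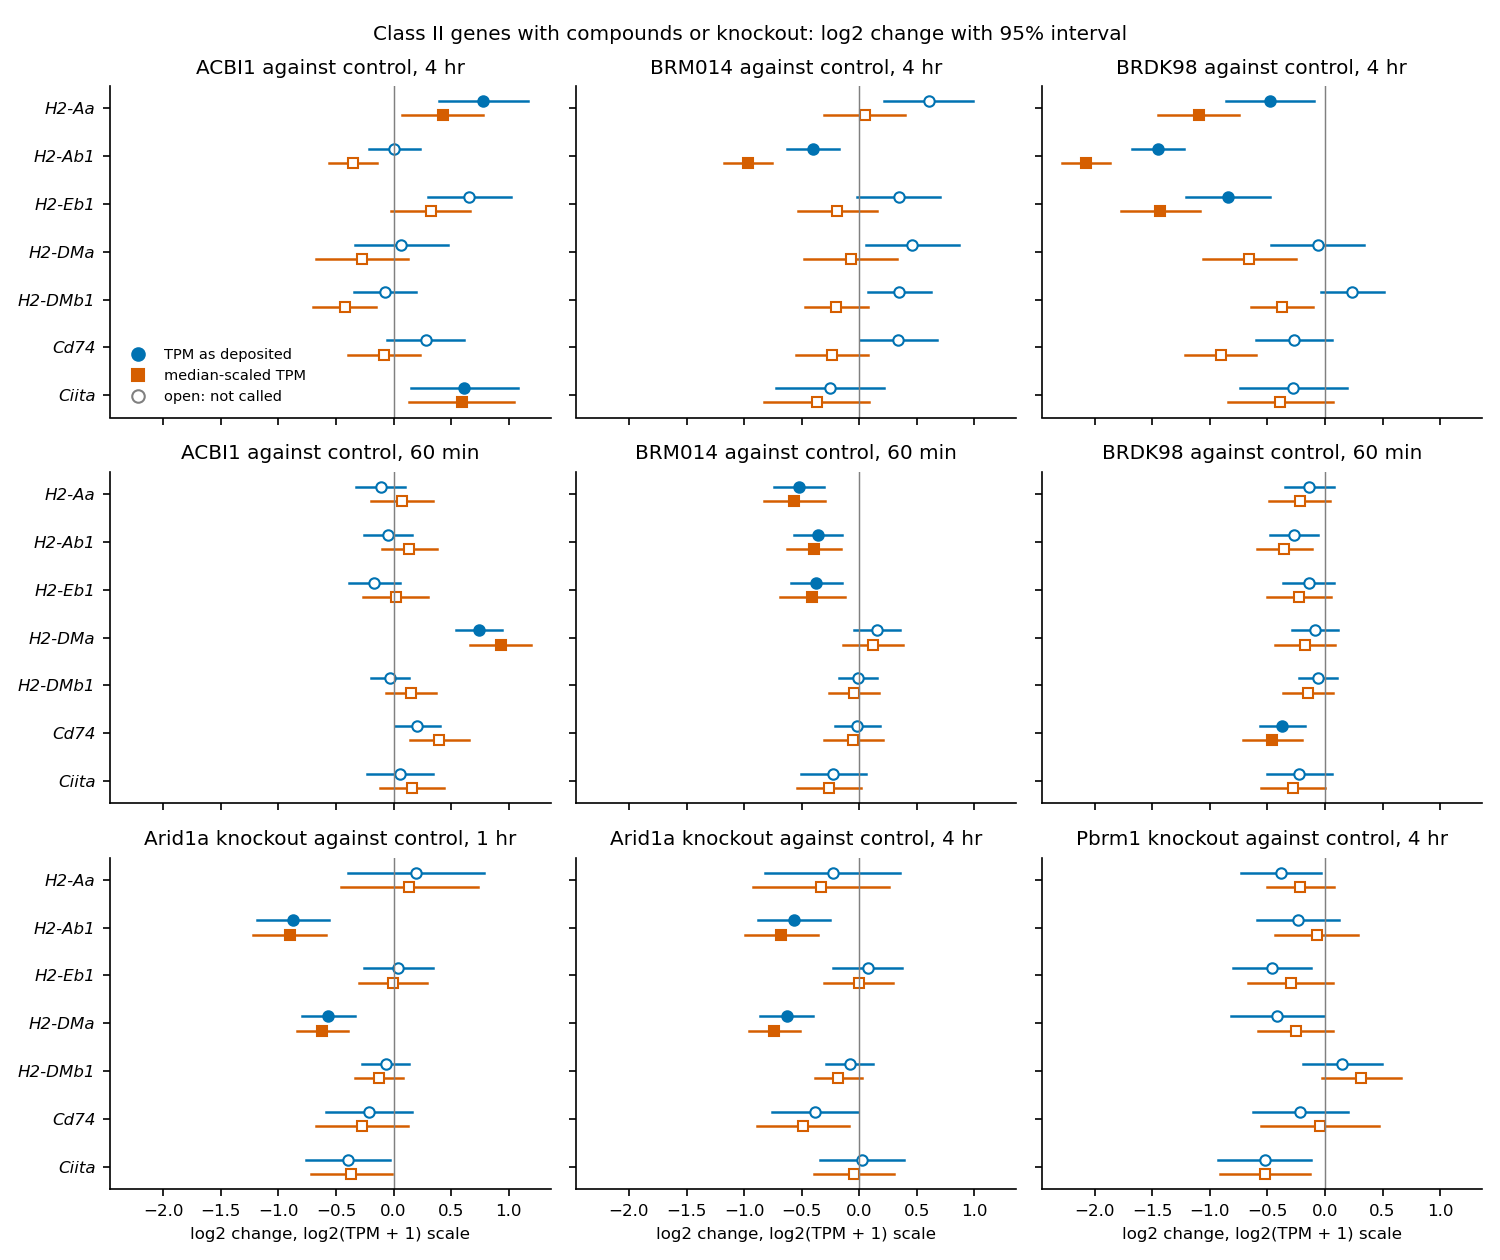
Log2 change of the 7 class II genes with each compound or knockout against its control, with 95% intervals, on deposited TPM (blue circles) and on median-scaled TPM (orange squares); filled symbols mark genes that passed on both. H2-Ab1 was lower with BRDK98 at 4 hr (-1.45) and in Arid1a-/- cells (-0.87 and -0.57), and H2-DMa was higher with ACBI1 at 60 min (0.74).

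The transcription factors and regulators of class II genes, 20 genes on a list chosen with earlier results of these data known, moved in both directions. At 4 hr, BRDK98 lowered 8 of the 20 and raised 2, against 12.4% of all genes lower and 22.2% higher, with a median change of -0.07 beside 0.46 for all genes. Spi1, encoding PU.1, which binds the Ciita promoter used in myeloid cells, was at 80.2 and 84.0 TPM with BRDK98, 133 and 113 TPM with BRM014 and 533 TPM in the control, changes of -2.68 and -2.11. With ACBI1, Spi1 was at 355 and 413 TPM. The BRDK98 and BRM014 libraries, with 0 or 1 reads of Ciita, were also the lowest for Spi1. In control cells Spi1 was at 310 and 372 TPM at 0 hr and 533 TPM at 4 hr. Ciita was at 2.74 and 2.0 TPM and at 0.209 TPM in these libraries. The part of Spi1 in the Ciita levels was not tested. Irf8, an interferon regulatory factor of myeloid cells, fell by 1.23 on the log2 scale with BRDK98. Rfx5, the RFX subunit that binds the X box, rose with all 3 compounds, by 1.41 with ACBI1, 1.60 with BRM014 and 1.08 with BRDK98; these comparisons share the single control library.

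At 60 min, BRM014 lowered 9 of the 20 regulators and raised 2, against 13.5% of all genes lower and 16.8% higher, with Prdm1, a repressor of Ciita, at -4.48, Rfx5 at -0.84 and Jak2, a kinase of the interferon gamma receptor, at -0.78. ACBI1 raised 7 and lowered 2, against 11.6% of all genes higher and 13.8% lower, with Jak2 at 1.06, Rfx5 at 0.50 and Creb1 at -0.66. In Arid1a-/- cells at 1 hr, 9 fell and 2 rose, against 16.8% of all genes lower and 18.5% higher, with Prdm1 at -1.86, Jak2 at -1.56 and Irf4 at -0.81. Jak2 was thus higher with ACBI1 and lower with BRM014 and in Arid1a-/- cells. In Pbrm1-/- cells none of the 20 passed, nor without control replicate 2, while 3 rose with that library as the only control.

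March1, a ubiquitin ligase that removes class II molecules from the cell surface, belongs to a list of genes of class II processing and turnover, of which 13 were tested. At 4 hr it was at 55.6 and 50.1 TPM with ACBI1, 5.32 and 6.35 TPM with BRM014, 17.2 and 16.6 TPM with BRDK98 and 114 TPM in the control. All 3 compounds lowered it, with log2 changes of -1.10, -4.08 and -2.69, and BRM014 was lower than BRDK98. Lower March1 therefore stood beside both higher H2-Aa with ACBI1 and lower H2-Ab1 with BRM014 and BRDK98. In control cells March1 was at 42.3 and 42.1, 11.9 and 12.5, and 114 TPM at 0, 1 and 4 hr in experiment 1. With ACBI1 at 4 hr, 2 genes of the list rose and 6 fell, against 20% of all genes higher and 13.5% lower. With BRM014 1 rose and 5 fell, against 26.6% higher and 16.4% lower, and with BRDK98 1 rose and 4 fell, against 22.2% higher and 12.4% lower.

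MHC class I presentation genes, a list of 20 set beside the class II genes, responded in another pattern. At 4 hr against 0 hr in control cells, 14 rose in experiment 1, 16 in experiment 2 and 12 in experiment 3, and none fell, against 20.1%, 17.9% and 16% of all genes that rose. In experiment 1, 5 class II genes fell, where 38.1% of all genes fell. In experiment 2 the class II genes H2-Ab1 and Cd74 rose, as class I genes did. In experiment 3 the count was again 12 without the 4 hr library that stood apart. The median class I change was 0.84, 1.64 and 0.65, beside -0.84, -0.63 and -0.75 for all genes. Nlrc5, the class I counterpart of Ciita, rose by 2.39 in experiment 1, where Ciita fell by 1.47 against a single 4 hr library. In experiment 2 both were higher at 4 hr. Nlrc5 was at 128 and 125 TPM, against 9.50 and 8.82 TPM at 0 hr, and Ciita at 2.02 and 1.86 TPM, against 0.766 and 0.294 TPM, the latter without a test. With ACBI1 at 60 min, 18 of the 20 class I genes rose and none fell, against 11.6% of all genes that rose, with a median of 0.96 beside -0.14 for all genes. Tapbpl rose by 1.45, Tap1, a peptide transporter subunit, by 1.37, Nlrc5 by 1.35 and Psmb10, an immunoproteasome subunit, by 1.34. H2-DMa and H2-DMb2 were the class II region genes that rose with them, while the I-A and I-E chain genes were between -0.17 and -0.05 on deposited TPM and none passed. With BRDK98 at 60 min none of the class I genes rose and 5 fell, against 5.55% of all genes that fell, and with BRM014 3 rose and 1 fell, against 16.8% higher and 13.5% lower.

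The 7 genes did not vary as 1 block. Over 45 libraries, after each experiment had been centred on its own mean, the levels of H2-Aa and H2-Eb1 were the most correlated (Pearson r = 0.92), followed by H2-DMa and H2-DMb1 (0.76), H2-Ab1 and Cd74 (0.74) and H2-Aa and H2-Ab1 (0.72). Cd74 and H2-DMb1 shared the least (0.10). Within experiment 4, Ciita and Cd74 had r = -0.54, and within experiment 2 they had r = 0.89. These libraries share stimuli, controls and tables, so the values describe them only. Ratios between members moved accordingly. H2-Ab1 to H2-Aa ranged over 0.675 to 1.74 in experiment 1 and 0.448 to 1.73 in experiment 2, and Cd74 made up 42.7 to 60.6% and 30.8 to 53.2% of the summed TPM of the 7 genes.

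Among 10409 genes tested in all experiments, those with levels most correlated with the mean of H2-Aa, H2-Ab1, H2-Eb1 and Cd74 over the same 45 centred libraries were Ncf4 (r = 0.82), Nadk (0.80), Rilpl2 (0.80), Zmynd15 (0.78) and Lrrc25 (0.77). Most correlated with Ciita were the macrophage marker Adgre1 (0.88), Ly9 (0.85), Gbgt1 (0.83), Gprc5b (0.82) and Abcc5 (0.81). Ciita exons overlap Dexi on the opposite strand by 329 bases. Dexi was at 7.15 and 8.01 TPM with ACBI1, 4.75 and 4.31 TPM with BRM014, 4.49 and 5.44 TPM with BRDK98 and 2.07 TPM in the control at 4 hr. It was above the control in the BRM014 and BRDK98 libraries in which Ciita had 1 read or none. The part of shared reads in the Ciita levels was not tested.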

How the data were processed

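RNA was sequenced as 50-base single-end reads from a stranded mRNA library kit, per the labels' protocols. Reads were aligned to mm10 with STAR 2.5.3a and processed with HOMER and DESeq2, per the submitters' processing notes. Per the file headers, HOMER counted exonic reads on both strands for 1 transcript per gene and the authors deposited TPM, beside their own log2 fold changes, p-values and adjusted p-values. Of 46 samples in 23 groups, 45 libraries were used, since 1 control column of experiment 1 was deposited again with identical values in 24537 genes. There was also 1 column that matched no sample, which was not used. In experiment 3 the headers name the Pbrm1-/- libraries "TAM", and they were matched by the rest of the name. The headers of the comparisons in experiments 2 and 4 put the reference first, and the sign of the authors' values was checked against TPM.

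Each table was fitted alone with limma 3.58.1 in R 4.3.3 on log2(TPM + 1), all groups sharing 1 estimate of the spread with the trend and robust options, for genes at 1 TPM or more in at least 2 libraries. This left 11531, 11798, 11044 and 11549 genes in experiments 1 to 4. Deposited TPM summed to 526364 to 658440 per library, so each fit was repeated on TPM scaled by median ratios. A gene was called where the Benjamini-Hochberg adjusted p was under 0.05 with the same sign in both fits, which decides against changes that the scaling turns. TPM steps gave whole reads (tolerance 0.1) for 100% of low values, and limma voom on these reads was an alternative. The other alternatives were either scaling alone, a pseudocount of 0.1, no filter, no trend and robust options, a replicate block, a minimum log2 change of 1 and leaving out each library. The fits were tested on simulated data. All 7 members were named, with up to 4 called genes of 5 TPM or more per other list and comparison, and the 5 most similar genes. The members and lists were chosen with earlier results of these data known. Values of 1 gene of the regulator list are not reported here.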

Additional observations from a re-analysis of the deposited data

Results flagged for a closer look

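In control cells the change at 4 hr against 0 hr pointed in opposite directions in experiments 1 and 2 in every library for 3 class II genes. The share of all genes that did so was not counted. Ciita was at -1.47 on the log2 scale in experiment 1 (lipid A, WT cells) and at 0.96 in experiment 2 (LPS, Arid1af/f cells). In experiment 2 Ciita reached 1 TPM at 4 hr only, so its value there is a description with no test. H2-Aa was at -1.52 and 0.40, and H2-Eb1 at -1.43 and 0.22. In experiment 2 H2-Aa and H2-Eb1 passed only after scaling and were not called, so none of these genes was tested and called in both directions. The difference between the experiments was not tested. Stimulus, genotype and table changed together and cannot be told apart, and the 4 hr group of experiment 1 was 1 library.

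With ACBI1, the effect on H2-DMa was larger at 60 min than at 20 min by 0.74 on the log2 scale (limma adjusted p = 0.00122), a difference that was tested as an interaction. With BRM014, the effect on H2-Aa differed between the same times by -0.49 (adjusted p = 0.0324), also tested as an interaction, and this call was lost in 6 of 8 fits that left out 1 library.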

How the results depend on the processing

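Of 356 counts of called members under alternatives, 281 were within 1.5 times the main count, and none of the 50 calls among 203 pairs of gene and comparison changed direction. On median-scaled TPM alone the count of called members was 4 in place of 2 at 1 hr in experiment 1, 4 in place of 2 with ACBI1 at 4 hr (2 higher, 2 lower), 6 in place of 3 with BRDK98 at 4 hr, 4 in place of 2 for BRM014 against ACBI1 at 4 hr, 6 in place of 3 at 4 hr of LPS in experiment 2, 3 in place of 0 at 4 hr in experiment 3, 2 in place of 1 with ACBI1 at 60 min and 5 in place of 2 for BRDK98 against ACBI1 at 60 min. On TPM as deposited alone it was 4 in place of 1 with BRM014 at 4 hr, 1 in place of 0 at 1 hr of LPS, 5 in place of 3 at 4 hr of LPS, 4 in place of 0 at 4 hr in experiment 3 and 2 in place of 1 for BRDK98 against BRM014 at 60 min. With voom on recovered reads it was 6 at 1 hr in experiment 1, 0 with ACBI1, 2 with BRM014 and 6 with BRDK98 at 4 hr, 4 for BRM014 against ACBI1 at 4 hr, 6 at 4 hr of LPS, 1 for the Arid1a effect at 4 against 1 hr, 4 at 4 hr in experiment 3, 2 with ACBI1 at 60 min, 2 each for the ACBI1 and BRM014 effects at 60 against 20 min, 5 for BRDK98 against ACBI1 and 2 for BRDK98 against BRM014 at 60 min. A pseudocount of 0.1 gave 0 with ACBI1 and 2 with BRM014 at 4 hr. No filter, and no trend and robust options, each gave 1 with ACBI1 at 4 hr and 0 for the BRM014 effect. A minimum log2 change of 1 left 1 with BRDK98 at 4 hr, 3 each for BRDK98 against ACBI1 and against BRM014 at 4 hr and 0 in 15 other comparisons. The cause of these shifts was not tested beyond the scaling, the filter and the minimum change themselves.

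The replicate numbers were not a pairing in the labels, and the deviations of same-numbered libraries had correlations of -0.037 to 0.169, -0.088 to 0.145, 0.014 to 0.228 and -0.239 to 0.236 in experiments 1 to 4. With a replicate block the count was 0 with ACBI1 at 4 hr and 2 for BRDK98 against BRM014 at 60 min.

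Leaving out each library gave counts of 0 to 2 at 1 hr and 4 to 4 at 4 hr in experiment 1, 0 to 1 with ACBI1 and 2 to 3 with BRDK98 at 4 hr, 2 to 3 and 1 to 2 in Arid1a-/- cells at 1 and 4 hr, 1 to 4 with BRM014 and 0 to 1 with BRDK98 at 60 min, 1 to 2 for the ACBI1 effect and 0 to 2 for the BRM014 effect. For pairs of compounds the counts were 2 to 3 for BRM014 against ACBI1 at 4 hr and 2 to 4 at 60 min, 2 to 3 for BRDK98 against ACBI1 at 60 min, and 4 to 5 and 0 to 2 for BRDK98 against BRM014 at 4 hr and 60 min. Without the lone 4 hr control of experiment 1 its comparisons have no value.

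The sign of 8 changes that were not called turned on median-scaled TPM, to 0.35 for H2-Eb1 and 0.32 for H2-DMb1 at 1 hr and 0.65 for H2-Ab1 at 4 hr in experiment 1, -0.35 for H2-Ab1 with ACBI1 and -0.37 for H2-DMb1 with BRDK98 at 4 hr, 0.34 for H2-DMa at 4 hr of LPS, and 0.45 for H2-Aa and 0.61 for H2-Ab1 at 4 hr in experiment 3. It turned for 9 with voom, to 0.39 for H2-Aa, 0.38 for H2-Eb1 and 0.33 for H2-DMb1 at 1 hr and 0.69 for H2-Ab1 and 0.35 for Cd74 at 4 hr in experiment 1, 0.39 for H2-DMa at 4 hr of LPS, and 0.51 for H2-Aa, 0.67 for H2-Ab1 and 0.41 for H2-Eb1 at 4 hr in experiment 3. Groups of 1 or 2 libraries and, for Ciita, few reads limit the precision.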
